A study of Mus musculus with 10 samples.

Results

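Chemokines and their receptors were examined in brown adipose tissue, the heat-producing fat of rodents, as 50 genes out of 18193 measured. The members were all genes whose annotated symbol is Ccl, Cxcl, Ccr or Cxcr followed by a number, together with Cx3cl1, Cx3cr1, Xcl1 and Xcr1, each read by its brightest probe set. They comprised 33 ligands and 17 receptors. The tissue came from 5 mice labelled SIRT3 KO and 5 WT littermates on a 129 background, about 1 year of age and untreated, with 1 expression array per mouse. SIRT3 is a mitochondrial deacetylase, and the comparison asks which transcripts differ with its genotype. The labels do not say how the allele was made, and sex was not given in the sources used here.

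Chemokines are small secreted proteins that guide migrating cells along gradients. They are grouped by the spacing of conserved cysteines near their amino terminus into CC (Ccl), CXC (Cxcl), CX3C (Cx3cl1) and XC (Xcl1) ligands, and they act through G protein-coupled receptors named after the ligand class. In adipose tissue they are known mainly for recruiting monocytes and other leukocytes, and both resident cells and leukocytes make them. The study gives no count of cells, so fewer cells of a type and less RNA per cell cannot be told apart in these tissue samples.

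The arrays agreed closely over all probe sets, with pairwise r from 0.988 to 0.997. The probe set of Sirt3 was not lower in arrays labelled KO (10.32 ± 0.07) than in WT arrays (10.13 ± 0.10; log2 signal, SD, n = 5 each), so groups are called here by their labels. Which exons the allele lacks is unknown here, and a probe set outside them would not check the labels. Of 8 brown adipocyte markers all were above the array medians, with Ucp1, the uncoupling protein, at a mean log2 signal of 14.14 and Cidea, a lipid droplet protein, at 14.19. In KO minus WT difference 6 of these 8 were lower, with a median of -0.084 and 0 past the test. The marker Adipoq differed by -0.14 ± 0.059 (SE). Skeletal muscle markers varied most between arrays: the mean of 14 genes was between 5.56 and 11.65 in arrays labelled KO and between 7.999 and 12.02 in WT arrays, and all 14 had a negative difference (KO minus WT). Of 4 control transcripts read at both ends, the 3' minus 5' signal of Pcx separated the groups, at 2.77 to 2.95 in arrays labelled KO and 2.96 to 3.44 in WT arrays. Those of Actb, Gapdh and Tfrc overlapped and differed by 0.049, -0.018 and -0.082. Their part in the results was not tested.

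Ccl2, Ccl7 and Cxcl1, ligands that attract monocytes and neutrophils, were among the members that varied most between mice. The high values of Ccl2 and Ccl7 lay in KO 3, KO 4 and KO 5, and those of Cxcl1 in KO 3 and KO 4. KO 1 and KO 2, and for Cxcl1 also KO 5, lay near the WT arrays. No member passed the test between genotypes: 0 of 50 had an adjusted p under 0.05 by limma, as did 0% of all genes. At an unadjusted p under 0.05, 5 members were higher in arrays labelled KO (10%, against 1.85% of all genes), namely Ccl3, Ccl2, Ccl7, Ccl22 and Cxcl1. At the same threshold 3 were lower (6%, against 2.83% of all genes), namely Ccr4, Ccr2 and Cxcl13. Without WT 4 and WT 5 these counts were 2 and 1, and the count over all 18193 genes was 706, against 851 with all arrays. In direction the members were evenly divided, with 25 higher, 25 lower and a median difference of 0.0024 log2 units, against 43.9% higher and a median of -0.013 over all genes.

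Of the 4 members with a range over 1 log2 unit and their highest value in KO 4, namely Cxcl1, Cxcl2, Cxcl10 and Ccl7, the sequence table held the promoters of Cxcl1, Cxcl2 and Cxcl10. They are shown because these ligands shared their highest array, so they were chosen after their values were seen. Each line gives the 250 bases before the annotated start, 5′ to 3′ on the gene's strand, from RefSeq (GRCm38.p6), with matches to the NF-kappaB consensus and to the AP-1 motif TGANTCA in capitals.
Cxcl1 (chr5:90890995-90891244, plus strand): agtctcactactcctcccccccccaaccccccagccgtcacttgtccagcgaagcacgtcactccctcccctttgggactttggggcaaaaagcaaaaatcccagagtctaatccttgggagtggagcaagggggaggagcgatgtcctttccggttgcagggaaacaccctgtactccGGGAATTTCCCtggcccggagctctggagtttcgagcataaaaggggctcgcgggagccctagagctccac
Cxcl2 (chr5:90903649-90903898, plus strand): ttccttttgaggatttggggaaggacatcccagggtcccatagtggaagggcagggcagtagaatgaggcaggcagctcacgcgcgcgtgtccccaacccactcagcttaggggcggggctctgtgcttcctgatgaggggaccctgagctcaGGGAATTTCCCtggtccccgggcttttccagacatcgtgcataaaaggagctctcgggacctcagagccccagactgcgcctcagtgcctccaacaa
Cxcl10 (chr5:92348890-92349139, minus strand): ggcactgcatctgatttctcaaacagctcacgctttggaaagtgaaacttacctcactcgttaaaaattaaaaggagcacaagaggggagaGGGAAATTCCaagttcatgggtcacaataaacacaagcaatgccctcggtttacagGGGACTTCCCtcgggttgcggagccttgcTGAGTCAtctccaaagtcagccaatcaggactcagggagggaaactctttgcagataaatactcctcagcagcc
In Cxcl1 and Cxcl2 the capitals are matches to the NF-kappaB consensus on both strands, which overlap by all but the outermost bases. Cxcl10 holds a pair of separate NF-kappaB matches on the forward strand, followed by a match to the AP-1 motif, which holds on both strands because its middle base is free. Over windows of this length, searched on both strands, 3.9% of 32851 promoters held the NF-kappaB consensus and 6.75% held TGANTCA. Among the 37 members with a promoter in the table the counts were 8 and 5 genes, and the TATAAA box was found in 12 of them, against 12.4% of all promoters. A gene was counted if any of its promoters matched, whereas the shares are of single promoters. The counts and the shares are therefore not like for like. The other members with an NF-kappaB match were Ccl20, Ccl9, Ccr3, Ccr6 and Cxcl3. Their highest arrays were, in that order, WT 5, KO 5, WT 3, KO 3 and KO 1. A match describes letters in the window and was not tested as a binding site or against the array values.

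In level, the chemokine genes had mean log2 signals from 2.68 to 10.11, while the brown adipocyte marker Ucp1 stood at 14.14. The brightest was Cxcl14, a ligand made by adipocytes and epithelial cells, with a mean log2 signal of 10.11, followed by Cxcl12 at 9.002, the ligand of Cxcr4 that retains blood stem cells in bone marrow. Next came Cxcl9 (7.98), Cxcl1 (7.80), Ccl27a (7.69) and Ccl11 (7.58). The dimmest was Cxcl5 at 2.68. Such signals order probe sets and not transcripts, since each probe set binds with its own strength. The medians of the arrays were 5.58 to 5.61. In all, 21 members had a mean above the highest of these and 29 did not. Of the 17 receptors, 2 lay above (Ccr2 and Ccr10), and RMA gives no detection call, so how far the dim members exceeded background is not known.

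**Figure D1:**
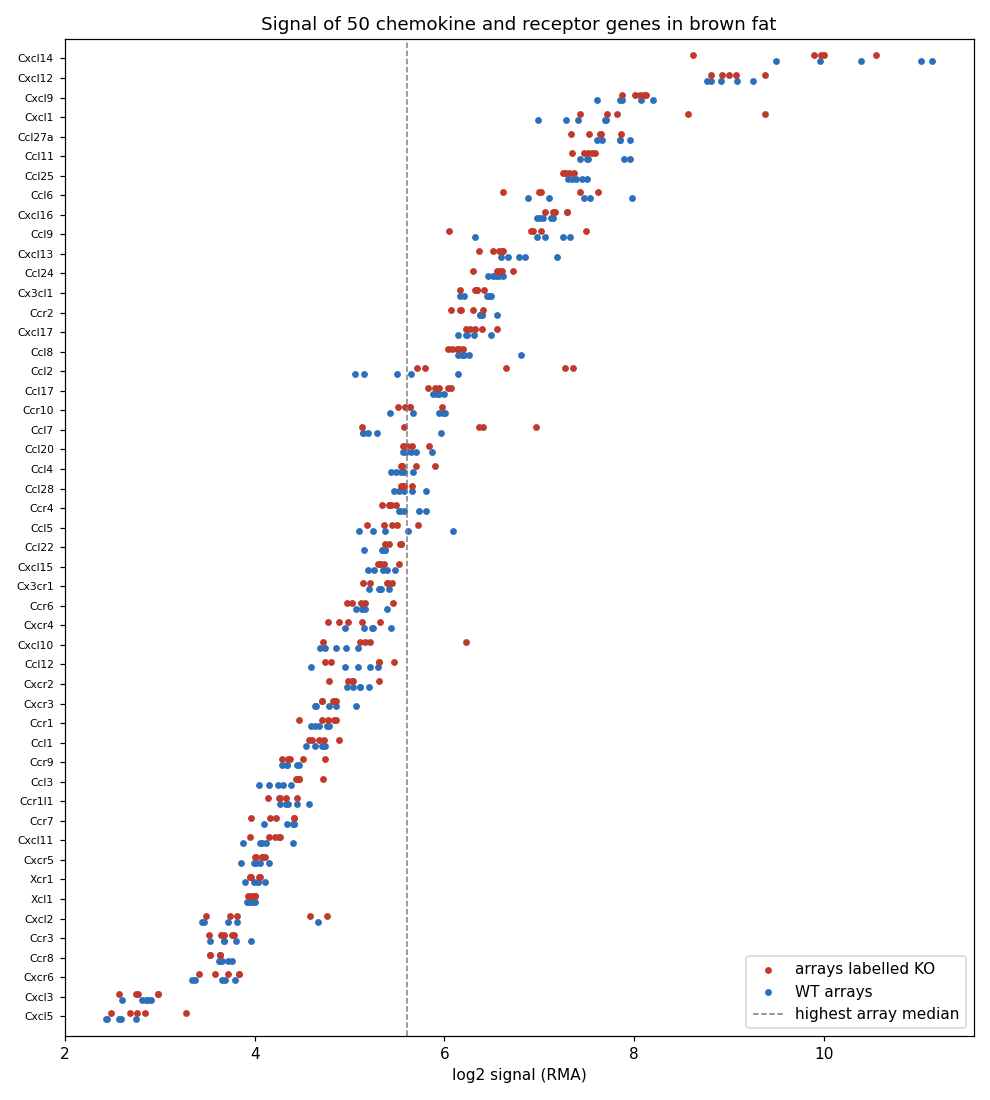
Log2 signal (x axis) of the 50 chemokine and receptor genes (rows, brightest at the top), with 1 point per array, red for arrays labelled KO and blue for WT arrays. The dashed line is the highest array median, 5.61, and 21 genes have a mean above it.

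Spread over the 10 arrays was concentrated in a few ligands. The standard deviation exceeded the 95th percentile of all genes (0.33 log2 units) in 8 members: Ccl2 (0.82), Cxcl14 (0.74), Cxcl1 (0.69), Ccl7 (0.67), Cxcl2 (0.52), Cxcl10 (0.45), Ccl9 (0.44) and Ccl6 (0.41). These are all ligands, and the same 8 were the members with a range over 1 log2 unit, a range that 5.45% of all genes reached. The median standard deviation was 0.14 for the members and 0.12 for all genes. KO 4 held the highest value of 9 of the 33 ligands. Over all 50 members it held 10 of the highest values (20%, against 8.02% of all genes), and WT 5 held 10 as well (20%, against 15% of all genes).

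**Figure D2:**
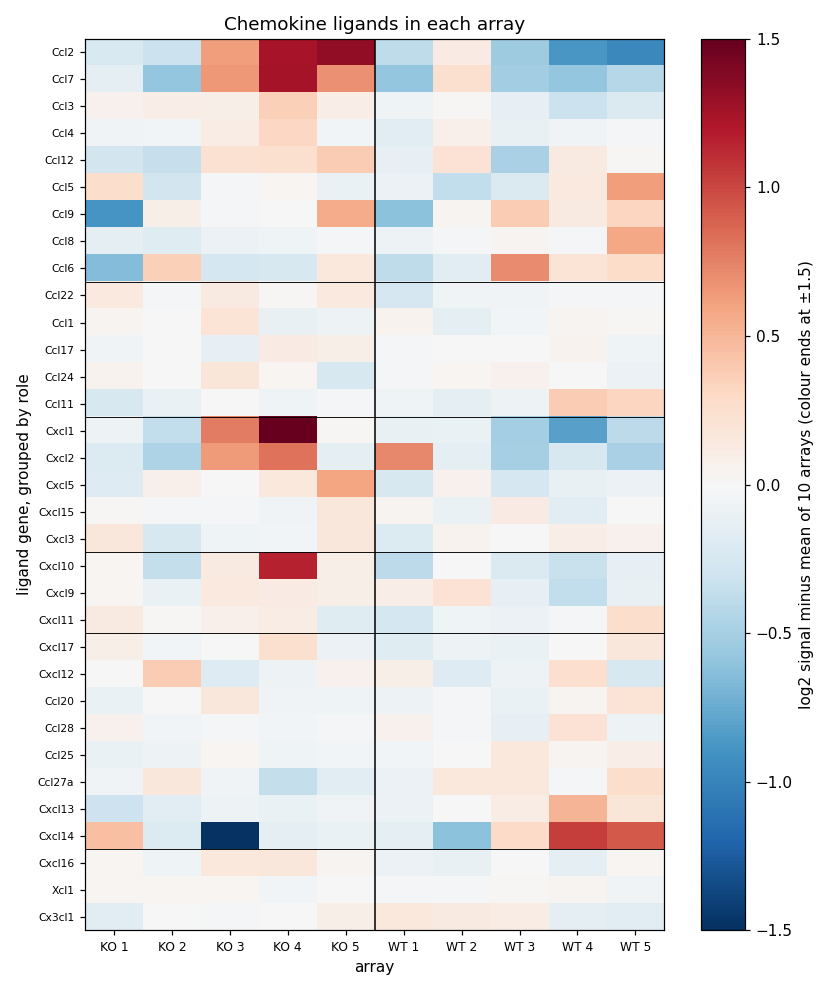
Log2 signal of the 33 ligands (rows, grouped by role) in each array (columns, arrays labelled KO on the left), as the difference from the gene's mean over 10 arrays. Ccl2 and Ccl7 are high in KO 3, KO 4 and KO 5, Cxcl1 in KO 3 and KO 4, and Cxcl14 is low in KO 3 and high in WT 4 and WT 5.

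The ligands that attract monocytes and macrophages held the largest difference among the members. Ccl2, which draws monocytes from blood through Ccr2, had log2 signals of 5.79, 5.71, 6.65, 7.27 and 7.35 in KO arrays 1 to 5, and 5.64, 6.15, 5.50, 5.15 and 5.06 in WT arrays 1 to 5. KO 3, KO 4 and KO 5 lay above every WT array, KO 1 and KO 2 lay below WT 2, and the groups overlapped. The difference was 1.06 ± 0.34 log2 units (SE), a ratio of 2.08, with a 95% confidence interval of 0.31 to 1.80. It had an adjusted p of 0.914 by limma over all genes, and exact permutation of its 10 values, two-sided, gave p = 0.040 before adjustment (n = 5 per group). Leaving out 1 array at a time gave between 0.86 and 1.27.

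Ccl7, another ligand of Ccr2, followed the same arrays. It had 5.58, 5.13, 6.36, 6.97 and 6.40 in KO arrays 1 to 5, against 5.14, 5.96, 5.19, 5.14 and 5.29 in WT arrays 1 to 5. Again KO 3, KO 4 and KO 5 were above every WT array, and WT 2 was the highest WT array. The difference was 0.74 ± 0.31 (exact p = 0.087, n = 5 per group). Ccl2 and Ccl7 are neighbours in a run of 6 protein-coding genes that continues with Ccl11, Ccl12, Ccl8 and Ccl1. The other genes of that run differed by -0.20 (Ccl8) to 0.097 (Ccl12), each with an interval that included 0. Ccl12 did have its highest values in KO 5 (5.46), KO 4 (5.31) and KO 3 (5.31), but WT 2 was at 5.29.

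Ccl3, a ligand of Ccr1 made by activated leukocytes, was the member with the smallest unadjusted p. Its log2 signals were 4.43, 4.46, 4.45, 4.72 and 4.46 in KO arrays 1 to 5, against 4.30, 4.38, 4.24, 4.05 and 4.15 in WT arrays 1 to 5. Every KO value lay above every WT value, which held in this direction for 1 of the 50 members and for 0.203% of all genes (0.627% in either direction). The difference was small, 0.28 ± 0.077, with an adjusted p of 0.914 by limma and an exact p of 0.0079 before adjustment, the smallest that 5 against 5 arrays can give (n = 5 per group). The probe set lay below the array medians, at a mean of 4.37. Its neighbour Ccl4, which acts with it, differed by 0.11 ± 0.079.

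Ccl6 and Ccl9, CC ligands of rodents that macrophages express, lie next to each other in gene order and varied more between mice than between genotypes. Ccl9 had 6.05, 7.02, 6.91, 6.94 and 7.49 in KO arrays 1 to 5, against 6.32, 6.98, 7.32, 7.06 and 7.25 in WT arrays 1 to 5. Ccl6 had 6.61, 7.62, 6.99, 7.02 and 7.43 in KO arrays 1 to 5, against 6.89, 7.10, 7.98, 7.47 and 7.53 in WT arrays 1 to 5. KO 1 and WT 1 were the lowest array of their group for both genes. The differences were -0.10 ± 0.25 for Ccl9 and -0.26 ± 0.22 for Ccl6, each within the spread between mice. Both genes were described with all arrays after their values were seen. Ccl5, a T cell-derived ligand, differed by -0.042 ± 0.17 and Ccl8 by -0.20 ± 0.11, and WT 5 was the highest of all arrays for both, at 6.09 for Ccl5 and 6.80 for Ccl8.

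The macrophage markers are given beside these ligands, and their part in the differences was not tested. Of 13 listed markers 9 were lower and 4 higher in arrays labelled KO, with a median difference of -0.12 and 0 past the test. Their mean was 6.77 to 7.16 in arrays labelled KO and 6.90 to 7.31 in WT arrays, and 11 of 13 lay above the array medians. Cd163, a scavenger receptor of resident macrophages, differed by -0.73 ± 0.29, Mrc1, the mannose receptor, by -0.25 ± 0.10, and Itgam, an integrin of myeloid cells, by -0.23 ± 0.11. With the mean of these markers as a covariate Ccl2 differed by 1.00 and Ccl7 by 0.65. With the mean of skeletal muscle markers as a covariate the values were 1.23 for Ccl2 and 0.80 for Ccl7. No adjusted p passed in either fit.

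Other cell types that could supply or answer chemokines were read from marker lists, with 0 past the test, and their part in the chemokine values was not tested. Monocyte and dendritic cell markers were higher in 2 of 8, with a median of -0.013, and Itgax, an integrin of dendritic cells, differed by 0.40 ± 0.22, with KO 5 highest at 6.61. Endothelial markers were higher in 7 of 9, with a median of 0.13. Esam, a junction protein, differed by 0.36 ± 0.15, Vwf by -0.24 ± 0.11 and Flt1 by 0.19 ± 0.13. Lymphatic markers were higher in 2 of 5, with a median of -0.0059. The hyaluronan receptor Lyve1 differed by -0.55 ± 0.23, while Prox1 differed by 0.15 ± 0.097 and Flt4 by 0.072 ± 0.063. Fibroblast and mesothelial markers were higher in 3 of 9, with a median of -0.037. Among them Pi16, a marker of adventitial fibroblasts, was at 6.29 to 6.70 in arrays labelled KO and 6.89 to 7.43 in WT arrays, without overlap. It differed by -0.56 ± 0.12 (adjusted p = 0.914 by limma, n = 5 per group). Erythroid and platelet markers were higher in 4 of 6, with a median of 0.029.

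**Figure D3:**
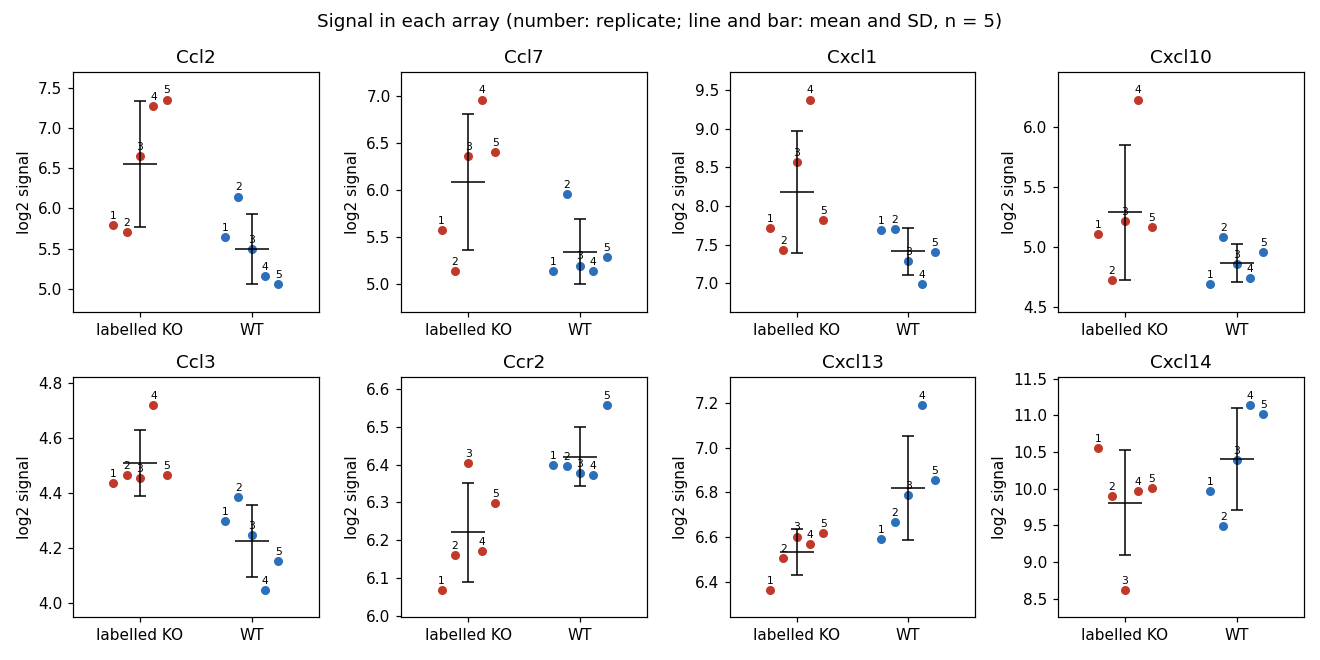
Log2 signal (y axis, scaled per gene) of 8 genes in each array, arrays labelled KO on the left and WT on the right, with the replicate number above each point and the mean and SD of 5 arrays in black. Ccl3 is the 1 gene of these whose groups do not overlap, and KO 3, KO 4 and KO 5 carry the high values of Ccl2 and Ccl7.

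Among CXC ligands that attract neutrophils through Cxcr2, Cxcl1 stood at 7.72, 7.43, 8.56, 9.38 and 7.82 in KO arrays 1 to 5, against 7.69, 7.70, 7.29, 6.99 and 7.40 in WT arrays 1 to 5. KO 4 and KO 3 were well above all others, KO 5 and KO 1 were just above the highest WT array, and KO 2 lay among the WT arrays. The difference was 0.77 ± 0.32 (adjusted p = 0.914 by limma, exact p = 0.040 before adjustment, n = 5 per group). Without KO 4 it was 0.47. All 3 probe sets of Cxcl1 had a positive difference. The one used is of a kind that can match several transcripts (_s_at), and a second such set (_x_at) gave 0.20 ± 0.078. The set with no such suffix gave 1.48 ± 0.47 at a lower mean signal of 5.65, with 5.67, 5.32, 6.96, 8.02 and 6.02 in KO arrays 1 to 5, against 5.63, 5.58, 4.36, 4.68 and 4.32 in WT arrays 1 to 5. In that set too KO 4 and KO 3 were the highest arrays.

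The other ligands of this class were dim. Cxcl2, the neighbour of Cxcl1 in gene order, had 3.74, 3.49, 4.58, 4.76 and 3.82 in KO arrays 1 to 5, against 4.67, 3.81, 3.45, 3.71 and 3.47 in WT arrays 1 to 5. Its high arrays were KO 4, WT 1 and KO 3, and it differed by 0.26 ± 0.29. Cxcl5, a ligand of the same receptor, had 2.49, 2.75, 2.68, 2.84 and 3.28 in KO arrays 1 to 5, against 2.44, 2.74, 2.43, 2.56 and 2.59 in WT arrays 1 to 5, with KO 5 as the highest. It differed by 0.25 ± 0.13, or 0.14 without KO 5. Cxcl3 (-0.0017 ± 0.089) and Cxcl15 (0.030 ± 0.067) lay near 0. Of 8 neutrophil markers 3 were higher and 5 lower, with a median of -0.022, and their mean was 5.09 to 5.38 in arrays labelled KO and 5.03 to 5.43 in WT arrays. S100a8, a calcium-binding protein abundant in neutrophils, was highest in WT 1 (5.68), followed by KO 3 (5.16).

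The ligands of Cxcr3, which are induced by interferon gamma and attract activated T cells, included 1 array far above the rest. Cxcl10 had 5.11, 4.72, 5.22, 6.23 and 5.16 in KO arrays 1 to 5, against 4.69, 5.08, 4.86, 4.74 and 4.96 in WT arrays 1 to 5. KO 4 was the highest, 3 further KO arrays lay just above the WT arrays, and KO 2 lay among them. The difference was 0.42 ± 0.22 with all arrays and 0.19 without KO 4. Cxcl9, the brightest of the 3 ligands, had 8.01, 7.88, 8.12, 8.10 and 8.06 in KO arrays 1 to 5, against 8.08, 8.20, 7.85, 7.61 and 7.87 in WT arrays 1 to 5, so the groups overlapped and WT 2 was the highest. It differed by 0.11 ± 0.10, or 0.034 without WT 4, 0.18 without WT 2 and 0.053 with the mean of macrophage markers as a covariate. Without both WT 4 and WT 5 it turned to -0.0097. Cxcl11 differed by 0.063 ± 0.095. Of 9 T and NK cell markers 4 were higher and 5 lower, and 3 of the 9 lay above the array medians.

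Ligands of eosinophils and of type 2 T cells differed little. Ccl22, a ligand of Ccr4 made by dendritic cells and macrophages, had 5.54, 5.37, 5.53, 5.41 and 5.54 in KO arrays 1 to 5, against 5.15, 5.35, 5.34, 5.38 and 5.38 in WT arrays 1 to 5. KO 2 alone among the KO arrays lay within the WT range. The difference was 0.16 ± 0.062 (adjusted p = 0.914 by limma, exact p = 0.024 before adjustment, n = 5 per group). Ccl11, the eosinophil attractant eotaxin, had 7.34, 7.47, 7.59, 7.51 and 7.56 in KO arrays 1 to 5, against 7.51, 7.43, 7.50, 7.96 and 7.90 in WT arrays 1 to 5. WT 4 and WT 5 stood above the other 8 arrays. It differed by -0.17 ± 0.11, by -0.090 without WT 4, by -0.11 without WT 5 and by 0.014 without both. With the mean of macrophage markers as a covariate it was -0.074. Ccl17 (0.020), Ccl24 (0.0083) and Ccl1 (0.025) lay near 0. Of 9 eosinophil and mast cell markers 8 were lower, with Cpa3, a mast cell protease, at -0.40 ± 0.16.

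Homeostatic ligands are made without inflammation and place cells within tissues. Listed together with mucosal ligands, they had a negative difference in 6 of 8 members. The median was -0.065, and 0 passed the test. Cxcl14 had 10.56, 9.90, 8.62, 9.97 and 10.003 in KO arrays 1 to 5, against 9.96, 9.49, 10.39, 11.14 and 11.02 in WT arrays 1 to 5. KO 3 was the lowest and WT 4 and WT 5 were the highest, a range of 2.52 log2 units or 5.75-fold. The difference was -0.59 ± 0.38, and it was -0.30 without KO 3 and -0.14 without WT 4 and WT 5. A second probe set gave -0.52 ± 0.30. Among brown adipocyte markers, the fatty acid elongase Elovl3 was likewise lowest in KO 3 (9.42), and WT 3 (11.56), WT 4 (11.55), KO 2 (11.54) and WT 5 (11.43) were its highest arrays.

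Cxcl13, the B cell attractant of lymphoid follicles, had 6.37, 6.51, 6.60, 6.57 and 6.62 in KO arrays 1 to 5, against 6.59, 6.67, 6.79, 7.19 and 6.85 in WT arrays 1 to 5. All KO arrays lay below the WT mean, and WT 1 overlapped with them. The difference was -0.28 ± 0.10 (adjusted p = 0.914 by limma, exact p = 0.024 before adjustment, n = 5 per group), and -0.15 without WT 4 and WT 5. Its second probe set gave -0.565 ± 0.27, with WT 4 highest at 7.01. Of 7 B cell and lymph node markers 4 were higher and 3 lower, and 1 of the 7 lay above the array medians.

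Cxcl12 had 8.997, 9.38, 8.81, 8.93 and 9.07 in KO arrays 1 to 5, against 9.09, 8.81, 8.92, 9.26 and 8.76 in WT arrays 1 to 5. The groups overlapped throughout, and the difference of 0.070 ± 0.12 had an interval of -0.19 to 0.33. It turned to -0.016 without KO 2, and was 0.019 without WT 5, 0.030 without WT 2, 0.13 without KO 3 and 0.14 without WT 4. Its 3 probe sets ranged from -0.11 to 0.14. Ccl27a, a ligand of skin-homing T cells, had 7.65, 7.86, 7.64, 7.33 and 7.53 in KO arrays 1 to 5, against 7.61, 7.85, 7.85, 7.66 and 7.96 in WT arrays 1 to 5, with KO 4 lowest. It differed by -0.19 ± 0.099, or -0.12 without KO 4. Its probe set is of the _x_at kind and near-identical copies of the gene exist in the mouse, so the signal may be shared. Ccl25, a ligand of gut-homing T cells, differed by -0.10 ± 0.053, while Cxcl17, Ccl20 and Ccl28 were between -0.028 and 0.073.

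The ligands with a membrane-bound form, given here with Xcl1, had small differences. Cxcl16, a transmembrane ligand of Cxcr6 that also binds oxidized lipoprotein, had 7.15, 7.06, 7.29, 7.29 and 7.17 in KO arrays 1 to 5, against 7.04, 7.01, 7.13, 6.97 and 7.15 in WT arrays 1 to 5. KO 3 and KO 4 were the highest. Cxcl16 differed by 0.13 ± 0.062 (adjusted p = 0.914 by limma, exact p = 0.048 before adjustment, n = 5 per group). Its second probe set differed by 0.17 ± 0.082. Cx3cl1, or fractalkine, had 6.16, 6.35, 6.32, 6.34 and 6.42 in KO arrays 1 to 5, against 6.50, 6.47, 6.45, 6.21 and 6.17 in WT arrays 1 to 5, with full overlap. It differed by -0.038 ± 0.080, and its 3 other probe sets gave 0.078 to 0.083, so its direction was not settled. Xcl1, the XC ligand of T and NK cells, differed by 0.014 ± 0.043.

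**Figure D4:**
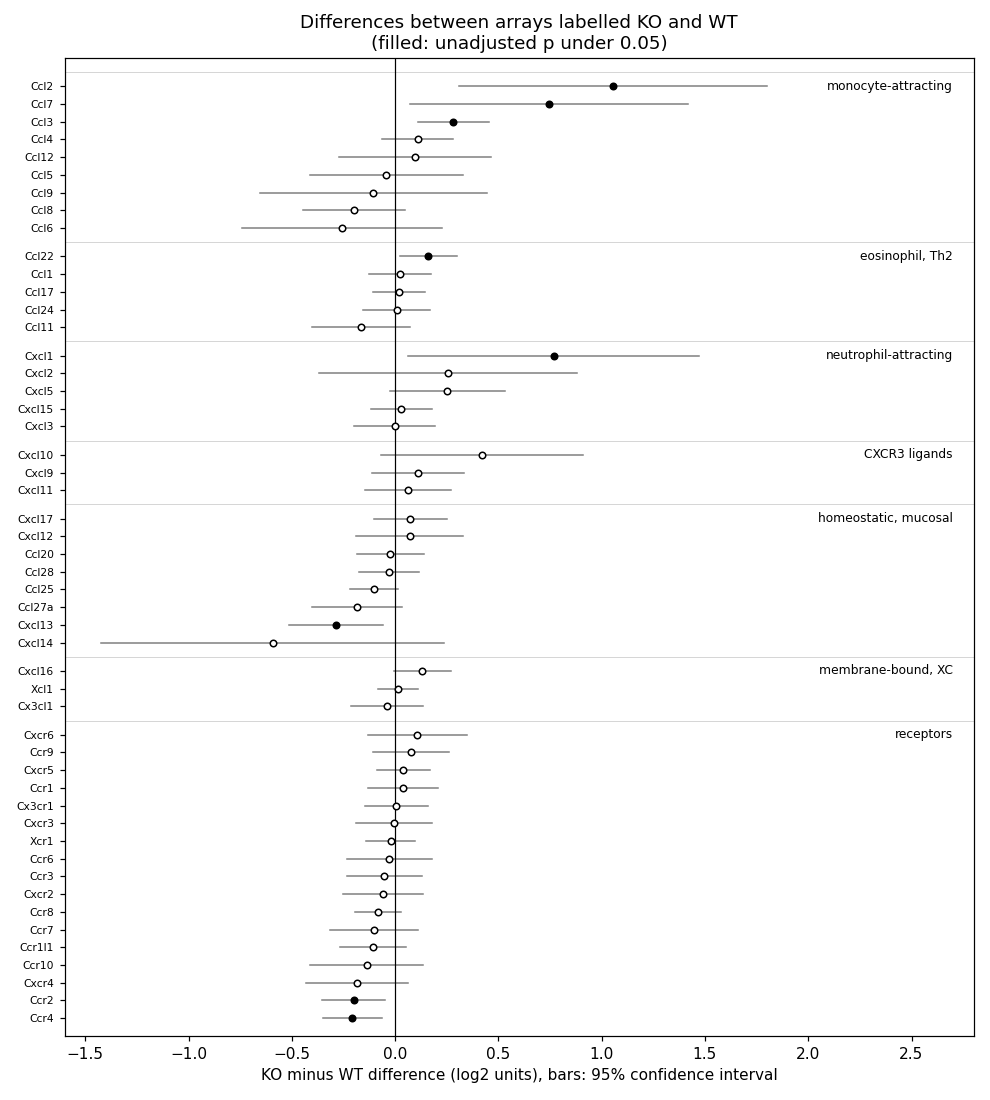
Difference between arrays labelled KO and WT arrays (x axis, KO minus WT, log2 units) with 95% confidence intervals for the 50 genes, grouped by role. Filled points mark the 8 genes with an unadjusted p under 0.05, and no gene passed after adjustment over all genes.

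Of the 17 receptors 12 had a negative and 5 a positive difference. Their median was -0.052, and 0 passed the test. Ccr4, the receptor of Ccl17 and Ccl22 on T cells, had 5.49, 5.42, 5.44, 5.34 and 5.42 in KO arrays 1 to 5, against 5.52, 5.58, 5.53, 5.73 and 5.80 in WT arrays 1 to 5. Every KO value lay below every WT value, which held for 1 of the 50 members and for 0.423% of all genes. The difference was -0.21 ± 0.065 (adjusted p = 0.914 by limma, exact p = 0.0079 before adjustment, n = 5 per group), and -0.12 without WT 4 and WT 5. The probe set was dim, at a mean of 5.53.

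Ccr2, the monocyte receptor of Ccl2 and Ccl7, had 6.07, 6.16, 6.40, 6.17 and 6.30 in KO arrays 1 to 5, against 6.40, 6.40, 6.38, 6.37 and 6.56 in WT arrays 1 to 5. KO 3 reached the WT range and the other KO arrays lay below it. The difference was -0.20 ± 0.070 (adjusted p = 0.914 by limma, exact p = 0.040 before adjustment, n = 5 per group), opposite in sign to its 2 ligands. Of the 3 other probe sets, all dimmer, 2 gave -0.028 and -0.084 and 1 gave 0.0073. The mean of all probe sets differed by -0.076.

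Cxcr4, the receptor of Cxcl12, had 4.99, 5.13, 5.32, 4.88 and 4.78 in KO arrays 1 to 5, against 5.24, 5.44, 5.15, 5.25 and 4.95 in WT arrays 1 to 5. The groups overlapped and the difference was -0.19 ± 0.11. Cx3cr1, the fractalkine receptor of monocytes and macrophages, had 5.45, 5.40, 5.40, 5.22 and 5.14 in KO arrays 1 to 5, against 5.32, 5.34, 5.41, 5.20 and 5.31 in WT arrays 1 to 5. It differed by 0.0065 ± 0.070, and its dimmer probe set by 0.22 ± 0.088. The first of these turned in sign without KO 1 (-0.025), KO 2 (-0.013), KO 3 (-0.012) or WT 4 (-0.022). The other 13 receptors differed by between -0.14 (Ccr10) and 0.11 (Cxcr6), each with an interval that included 0. They include Cxcr2 (-0.059 ± 0.088), the receptor of Cxcl1, and Cxcr3 (-0.0062 ± 0.083), the receptor of Cxcl9 and Cxcl10.

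**Figure D5:**
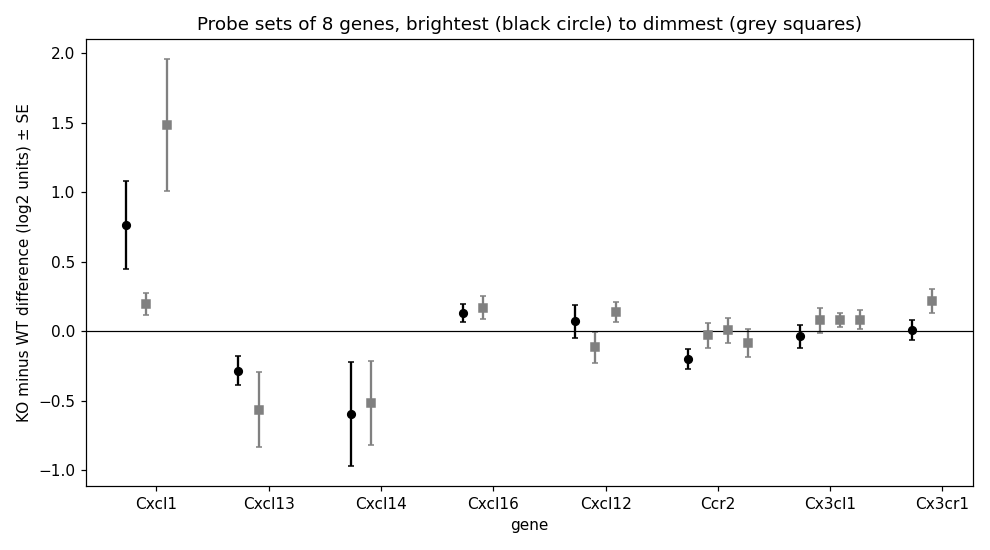
Difference between arrays labelled KO and WT arrays (y axis, log2 units, bars are standard errors) for every probe set of 8 genes, with the probe set used as a black circle and dimmer ones as grey squares. The 3 probe sets of Cxcl1 and both of Cxcl13, Cxcl14 and Cxcl16 share a sign, while those of Cxcl12, Ccr2 and Cx3cl1 do not.

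In all, 18 members had several probe sets, and in 8 of them at least 1 differed in sign from the one used.

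Genes around the chemokine system were given from lists of their own. Atypical receptors, which bind chemokines and remove them, were listed with platelet ligands and with chemerin and its receptors. Of these 9 genes 3 were higher, with a median of -0.028. In this list Ackr3, a scavenging receptor of Cxcl12, was bright at a mean of 10.83 and differed by -0.026 ± 0.16, while Pf4, the platelet chemokine, differed by -0.18 ± 0.071, Cmklr1, the chemerin receptor, by -0.11 ± 0.058 and Ccrl2, a chemerin-binding receptor, by 0.11 ± 0.087. Genes that carry the receptor signal, such as G proteins, kinases and Rac activators, were higher in 22 of 34 with a median of 0.022, and Pik3r5, a subunit of phosphoinositide 3-kinase gamma, had the smallest unadjusted p at 0.23 ± 0.079. Inducers of chemokines were higher in 14 of 19 with a median of 0.047. Rela, an NF-kappaB subunit, differed by 0.18 ± 0.073, with KO 4 highest at 9.63. Relb, another subunit, differed by 0.24 ± 0.14, with KO 3 (7.28) and WT 1 (7.24) as its highest arrays. Among other subunits, Nfkb2 differed by 0.047 ± 0.063 and Rel by -0.076 ± 0.12. The cytokine Il6 differed by 0.52 ± 0.31, with KO 4 (5.17) and KO 3 (3.98) as its highest arrays. It was dim, at a mean of 3.58, and lay below the array medians in every array. In the same list Tnf differed by 0.0070 ± 0.071, Il1b by 0.096 ± 0.17, Tnfaip3 by 0.026 ± 0.20 and Nfkbia by -0.018 ± 0.15. Il1b was highest in WT 1 (6.86). The part of these inducers in the chemokine values was not tested. Proteins that cleave or hold chemokines were higher in 6 of 14, with Dpp4, a protease that trims chemokines, at -0.17 ± 0.061. No gene of these 4 lists had an adjusted p under 0.05, and at an unadjusted p under 0.05 there were 2 higher and 2 lower among 76, or 5.26%, against 4.68% of all genes.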

How the data were processed

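RNA of 10 brown fat samples was read on Affymetrix arrays. Extraction used Trizol and a column, per the labels. The deposited values are log2 signals made with RMA, per the submitters' processing notes; the program and its settings are unknown here. That they are log2 was read from their range. RMA makes array distributions alike, so a shift shared by most transcripts would not show, and it gives no detection call. The number of arrays limits the precision.

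Of 45101 probe sets, 34945 named 1 gene by the platform annotation, 932 several and 9160 none, while 64 were controls. Names were updated by gene ID through the RefSeq table of GRCm38.p6 (34741 matched), which also gave gene order. Probe sets of several genes, such as those shared by Ccl19, Ccl21a or Ccl27b with copies, were left out. The brightest probe set per gene left 18193 genes.

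KO was compared with WT (KO minus WT) in limma 3.58.1 (lmFit, eBayes; R 4.3.3), with two-sided p-values and Benjamini-Hochberg adjustment over all genes and a threshold of 0.05. Errors are standard errors. Single genes were also compared over the 252 choices of 5 of 10 arrays, for the 50 members; p-values measure the spread between these samples, taken as separate mice since the labels speak of littermates. The fit was tested on simulated data.

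Values in all arrays are given for the 10 members with the smallest unadjusted p, the 6 with the highest mean and 13 fixed ones, 19 in all (Ccl21a was not analysed here); of each other list, up to 3 with the smallest p are named. Ackr3, S100a8, Cidea, Nfkb2, Rel, Tnf, Il1b, Tnfaip3, Nfkbia, Ccl6, Ccl9, Cxcl2, Ccl12 and second probe sets were added after their values were seen. Members and lists were chosen with earlier results of these data known. Alternatives were 22 other settings or subsets of arrays. The only pair of arrays left out together was WT 4 and WT 5, which held the highest values of Ccl11 and Cxcl14. What leaving out another pair would give was not tested. Figures were drawn with matplotlib 3.10.9.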

Additional observations from a re-analysis of the deposited data

Results flagged for a closer look

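In 38 groups of 5 arrays, 2 for each of the 19 genes given in all arrays, 4 held an array far from the other 4 of its group; chance alone flags about 1 in 20 groups. Ccl3 in KO 4 was the highest of its group at 4.72, with the next array at 4.46. Ccl7 in WT 2 was the highest WT array at 5.96, with the next at 5.29. Ccr2 in WT 5 was the highest WT array at 6.56, with the next at 6.40. Ccl22 in WT 1 was the lowest WT array at 5.15, with the next at 5.34.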

How the results depend on the processing

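Over 22 alternatives the count of genes with an adjusted p under 0.05 was 0, and so was that of the members; leaving out each array in turn gave 0 to 0 for both. At an unadjusted p under 0.05 the counts were 851 genes and 8 members. The 8 of 50 members became 6 to 11 when 1 array was left out and 3 without WT 4 and WT 5. When genes below the median of all genes were left out, 2 of the 12 members kept had such a p. The 851 of 18193 genes became 1470 with the muscle covariate, 1418 without WT 2 and 706 without WT 4 and WT 5. When dim genes were left out they were 469 of the 9097 genes kept. These last counts of members and genes thus refer to smaller sets. The median of the members was -0.10 over the 12 bright ones.

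Of the 19 genes, 14 of 405 values turned in sign, and the cause was not tested. Ccl11 was at 0.014 and Cxcl9 at -0.0097 without WT 4 and WT 5, and Cxcl12 was at -0.016 without KO 2. Cx3cl1 turned to 0.051 with the mean of all probe sets, 0.021 with the muscle covariate and 0.00062 without KO 1, the top of a leave-1-out range that began at -0.085, while that of Cxcl12 ended at 0.14. Cx3cr1 turned to -0.011 with array weights, -0.019 with the muscle covariate, -0.020 with the macrophage covariate, -0.033 without WT 4 and WT 5, -0.025 without KO 1, -0.013 without KO 2, -0.012 without KO 3 and -0.022 without WT 4.

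Same-numbered arrays had correlations of deviations from group means, over all genes, between -0.40 and 0.24. Skeletal muscle markers varied widely between arrays, so these correlations cannot show whether mice were paired by litter or collection. With the replicate number as a block, 0 members and 0 genes were called, and 6 members and 736 genes had an unadjusted p under 0.05. Dim members limit what can be read: 29 of 50 had a mean that was not above the highest array median.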
